A study of Danio rerio with 4 samples.

Results

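Serine, glycine and folate metabolism was followed through 6 genes, PHGDH, PSAT1, GLDC, AMT, DLD and MTHFD1, out of 32379 genes counted. They were taken by Ensembl identifier from a set list that was drawn up with results of this same comparison in view, so their values are a description and no test is given for them. RNA came from whole zebrafish embryos of the AB strain at 48 hours post fertilization. Each embryo had received 3 ng of a morpholino, a synthetic antisense oligomer, at the 1-cell stage. The controls (2 libraries) got a control morpholino, and the treated embryos (2 libraries) got the morpholino named sMOsrsf5a, directed at srsf5a, a gene for a serine/arginine-rich splicing factor. All were screened with rhodamine dextran, and 80 embryos were pooled per condition. A morpholino is transient and acts in the whole embryo, and every control embryo was injected as well. The series title asks about RNAs that morpholinos affect inadvertently, and the comparison below is the srsf5a morpholino against the control morpholino.

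In textbook biochemistry the pathway runs from glycolysis to folate. PHGDH oxidises 3-phosphoglycerate, PSAT1 transfers an amino group to the product, and PSPH removes the phosphate to leave serine. Serine hydroxymethyltransferases move a carbon from serine to tetrahydrofolate and leave glycine, and the mitochondrial glycine cleavage system takes another carbon from glycine. That system is built from GLDC (the decarboxylase), AMT (the aminomethyltransferase that hands the carbon to folate), the lipoate-carrying H protein and DLD (dihydrolipoamide dehydrogenase, which reoxidises lipoate and also serves the pyruvate, 2-oxoglutarate and branched-chain dehydrogenase complexes). MTHFD1 is the cytosolic enzyme that interconverts folate-bound carbons for purine, thymidylate and methionine synthesis. In mammals several of these genes are regulated by the transcription factor ATF4.

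Libraries held 15139525 to 36240893 reads assigned to genes, with control replicate 1 the shallowest and control replicate 2 the deepest. Levels are given as CPM, gene reads scaled to a common library total with TMM factors. They are not divided by transcript length, so they compare libraries and not genes. Fold changes are on the log2 scale and set treated over control libraries. Their SE is the size of the fold change divided by the square root of the F statistic in edgeR's quasi-likelihood test. A gene is said to pass when its Benjamini-Hochberg adjusted p over 19917 tested genes is under 0.05. The targeted gene srsf5a (ENSDARG00000029818) read 335 and 286 CPM in control libraries against 335 and 368 CPM in treated ones, and since a block of splicing need not lower total counts, this does not check the labels. All 6 members passed the filter on low counts, each with at least 152 reads in every library. In pooled whole embryos, a change in how many cells express a gene and a change in RNA per cell cannot be told apart.

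None of the 6 members passed edgeR's test, against 1.98% of all tested genes; 3 had an unadjusted p under 0.05, against 20.6%, and DESeq2 called 2, against 6.41%. Nothing is read from these counts, because the members were chosen on this contrast. Levels of 4 members lay above both controls in both treated libraries, as did 26.1% of tested genes, and 1 lay below both, as did 26.3%. In all, 5 of 6 were clear of the controls on one side, beside 52.4% of tested genes. PHGDH, PSAT1, GLDC and DLD formed the first group, MTHFD1 was the member below, and AMT overlapped. The median log2 fold change of the 6 was 0.20, beside 0.0003 for all tested genes.

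**Figure D1:**
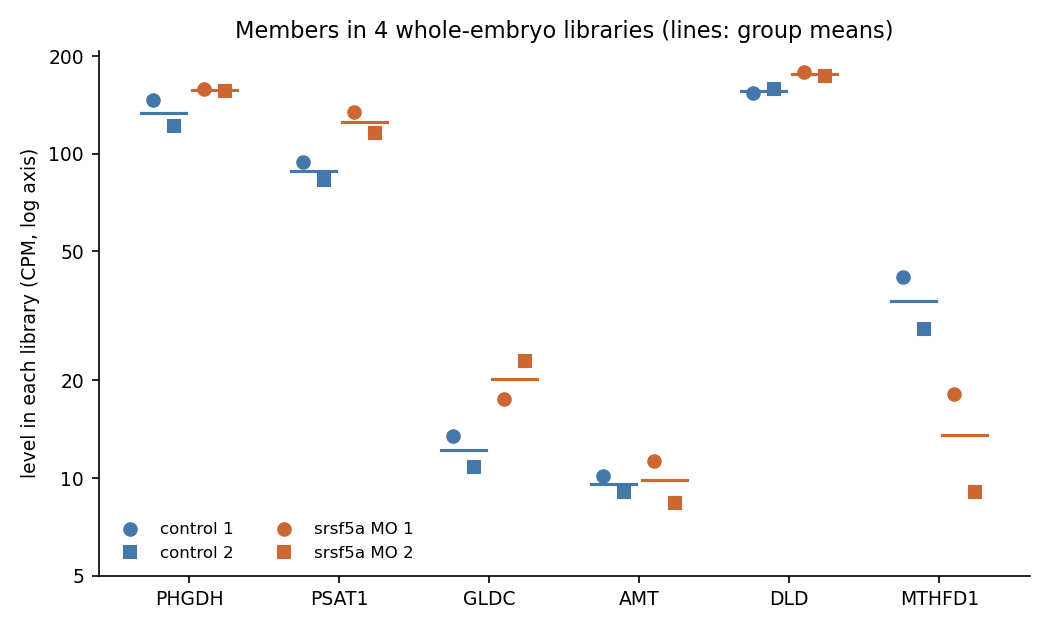
Level of each member (CPM, log axis) in the 2 control (blue) and 2 srsf5a-morpholino (orange) libraries, with lines at group means, circles for replicate 1 and squares for replicate 2. PSAT1 and GLDC sit higher with the srsf5a morpholino, MTHFD1 (ENSDARG00000018266) sits lower with a wide gap between its replicates, and AMT overlaps.

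The serine synthesis genes had fitted differences from 0.24 to 0.50, which were not tested against each other. PSAT1 (ENSDARG00000016733) stood at 94.5 and 82.9 CPM in control replicates 1 and 2, against 135 and 115 CPM in treated replicates 1 and 2. The groups did not overlap, and the means differed 1.41-fold (88.7 ± 8.22 against 125 ± 13.6 CPM, SD, n = 2). Its log2 fold change was 0.50 ± 0.12. PHGDH (ENSDARG00000001873) stood at 146 and 121 CPM in control libraries against 158 and 156 CPM in treated ones. Its treated libraries were nearly equal, while the controls were 1.20-fold apart, so that the group means differed by about as much as the controls did from each other. The log2 fold change of PHGDH was 0.24 ± 0.11, and it ranged from 0.11 without control replicate 2 to 0.37 without control replicate 1. PSPH (ENSDARG00000040314), which completes serine synthesis and is not a member, had 41.9 and 31.8 CPM in control libraries against 44.1 and 54.9 CPM in treated ones. Its groups came close without overlapping, and its log2 fold change of 0.43 ± 0.16 did not pass (adjusted p = 0.201 in edgeR). With single libraries left out, the log2 fold change of PSPH ran from 0.24 without control replicate 2 to 0.63 without control replicate 1.

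The ratio of PSAT1 to PHGDH reads within a library does not depend on scaling. It was 0.648 and 0.682 in control libraries against 0.852 and 0.738 in treated ones. Both treated ratios were above both control ratios, on average 1.20-fold, with replicate 1 the higher.

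The step from serine to glycine held the one enzyme of the core pathway that passed. SHMT1 (ENSDARG00000052816), the cytosolic serine hydroxymethyltransferase, rose from 50.5 and 51.5 CPM in control libraries to 81.3 and 88.7 CPM in treated ones. Replicates of each group lay close together, far from the other group. The log2 fold change was 0.74 ± 0.10 (95% interval 0.51 to 0.96, adjusted p = 0.0219 in edgeR). Its call ended without control replicate 1 (0.72, adjusted p = 0.0753) and without control replicate 2 (0.75, adjusted p = 0.124 in edgeR), while the size of the change hardly moved. The mitochondrial SHMT2 was not analysed here.

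Among glycine cleavage genes, the fitted difference was largest for the decarboxylase gene and smallest for the aminomethyltransferase gene. GLDC (ENSDARG00000035120) had 13.5 and 10.9 CPM in control libraries against 17.5 and 23.0 CPM in treated ones. The groups did not overlap, and replicate 2 was the lower control and the higher treated library. Mean levels were 12.2 ± 1.87 and 20.2 ± 3.89 CPM (SD, n = 2), 1.66-fold apart, and the log2 fold change was 0.75 ± 0.18. AMT (ENSDARG00000010862) had 10.2 and 9.05 CPM in control libraries against 11.3 and 8.37 CPM in treated ones. The treated libraries enclosed both controls, and the log2 fold change of AMT was 0.04 ± 0.18 (95% interval -0.39 to 0.47), which leaves room for differences in either direction. Its sign turned without control replicate 2 (-0.05) and without treated replicate 1 (-0.19).

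DLD (ENSDARG00000008785), the enzyme and not the Notch ligand gene of like name, had 154 and 159 CPM in control libraries against 178 and 173 CPM in treated ones. Replicates were within a few percent of each other in both groups, and the log2 fold change was 0.17 ± 0.09. The H protein gene gcsha (ENSDARG00000091655) held 1 read in control replicate 1 and none elsewhere and was not tested, and gcshb was not analysed here.

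Because GLDC and AMT work in one complex, their reads were also set against each other within each library. The ratio of GLDC to AMT reads was 1.33 and 1.20 in control libraries against 1.54 and 2.75 in treated ones. Both treated ratios were the higher ones, but replicate 2 stood far above replicate 1. The ratio of GLDC to DLD reads was 0.0877 and 0.0684 in control libraries against 0.0981 and 0.133 in treated ones, again without overlap. That of AMT to DLD overlapped, at 0.066 and 0.0571 against 0.0635 and 0.0483. These ratios are a description of 4 libraries and were not tested.

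MTHFD1 was the member with the largest difference and the only one lower with the srsf5a morpholino. This identifier (ENSDARG00000018266) had 41.5 and 28.7 CPM in control libraries against 18.2 and 9.05 CPM in treated ones, from 622, 1054, 419 and 213 reads. The groups did not overlap, yet libraries of one group differed 1.45-fold (controls) and 2.01-fold (srsf5a morpholino). The treated mean was 0.387 of the control mean, and the log2 fold change was -1.36 ± 0.32, with the widest SE of any member. Leaving out treated replicate 1 gave -1.94 and leaving out treated replicate 2 gave -0.94. A larger change in either direction was seen in 1.21% of tested genes. Nothing is read from this rank, because the members were chosen on this contrast.

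A paralog is also listed as MTHFD1 (ENSDARG00000040492). It had 131 and 111 CPM in control libraries against 125 and 151 CPM in treated ones, with overlapping groups and a log2 fold change of 0.19 ± 0.13 (adjusted p = 0.454 in edgeR). Of the reads assigned to either gene, ENSDARG00000018266 supplied 24.1% (95% exact Clopper-Pearson interval 22.5 to 25.8) and 20.5% (19.4 to 21.6) in control replicates 1 and 2. With the srsf5a morpholino it supplied 12.7% (11.6 to 13.9) and 5.63% (4.92 to 6.42). The 4 intervals, which cover counting error only, did not overlap, including those of libraries of one group. Summed over both genes the level was 172 and 140 CPM in control libraries against 143 and 161 CPM in treated ones, so that the sums overlapped while the shares did not. Reads with several alignments were set aside by the counting, so values of such paralogs are uncertain. Their total was 29.0% to 34.2% of the counts listed per library, which need not equal their share of reads.

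**Figure D2:**
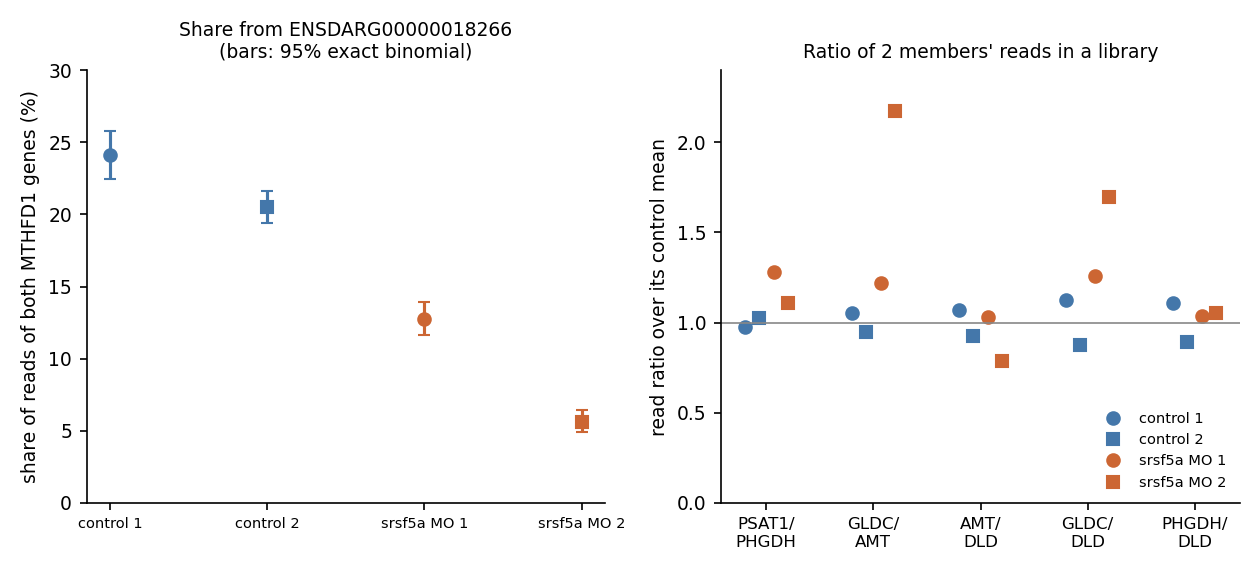
Left, share of the reads of both MTHFD1 genes that came from ENSDARG00000018266 in each library (%), with 95% exact binomial intervals. Right, ratio of the reads of 2 members in each library, divided by the mean ratio of the controls, with circles for replicate 1 and squares for replicate 2. The share is 20.5% or more in the controls and 12.7% or less with the srsf5a morpholino, and the GLDC to AMT ratio is highest in treated replicate 2.

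The members did not follow one profile over the 4 libraries. When each gene's log2 CPM was centred on its own mean, AMT lay nearest to the average of the members (Euclidean distance 0.154). MTHFD1 lay farthest (1.54), farther than 99.1% of tested genes. That rank is not read as a result, because the members were chosen on this contrast and the average includes MTHFD1. Among the genes nearest to that average were MEGF6, abhd12, tpma and RNF181, whose log2 fold changes were 0.04 to 0.08. The average rests on 4 libraries, and it differed little between the groups. It mixes opposite directions: centred values of MTHFD1 were 0.96 and 0.43 in control libraries against -0.21 and -1.18 in treated ones. PHGDH, PSAT1, GLDC and DLD were higher in both treated libraries than in both controls. Genes near this average therefore need not resemble single members.

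The authors' deposited table, made with DESeq2, lists the members in the same directions. PSAT1 is given at 0.45 ± 0.13 (log2, adjusted p = 0.0107) and GLDC at 0.59 ± 0.18 (adjusted p = 0.0234) in the authors' deposited table. These were the 2 members under 0.05 in the authors' deposited table, where 6.12% of genes with an adjusted p were. MTHFD1 (ENSDARG00000018266) stood there at -0.55 ± 0.22 (adjusted p = 0.13), while from the same counts edgeR gave -1.36 and DESeq2 run here gave -1.37. Deposited sizes were smaller for other genes with a wide SE too, such as SLC25A38 (ENSDARG00000059805, 0.87 against 1.94 in DESeq2 run here). The deposited scale is therefore unlike the one used here, and -0.55 is not read as a smaller change. The authors' deposited table gives PHGDH at 0.21, DLD at 0.15 and AMT at 0.03.

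Of the other genes of the pathway, 71 were tested in 12 groups by role, and 6 were higher (against 1.22% of all tested genes) and 0 lower (against 0.768%), which together is 8.45% beside 1.98%. The lists were drawn up with results of these data known, so this excess over the background is not independent evidence. Without the ATF4 group 3 of 61 passed, and among the core serine, glycine and folate enzymes 1 of 12. By unadjusted p under 0.05, 30 were higher and 2 lower, against 10.5% and 10.1% of all tested genes, and DESeq2 called 12 higher (3.24% of all genes it adjusted) and 0 lower (3.16%). Of the 71, 57 (80.3%) had a log2 fold change above 0, as did 50.1% of all tested genes, and their median was 0.22. The genes that passed were SHMT1, GNMT, cbsb, atf4b, ASNS and CEBPB, and the last 3 belong to the ATF4 group. The number of calls depended on the libraries. It fell when either control library was left out and rose when either treated one was. The number over all tested genes moved likewise, so these shifts are not read as a result about the pathway.

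**Figure D3:**
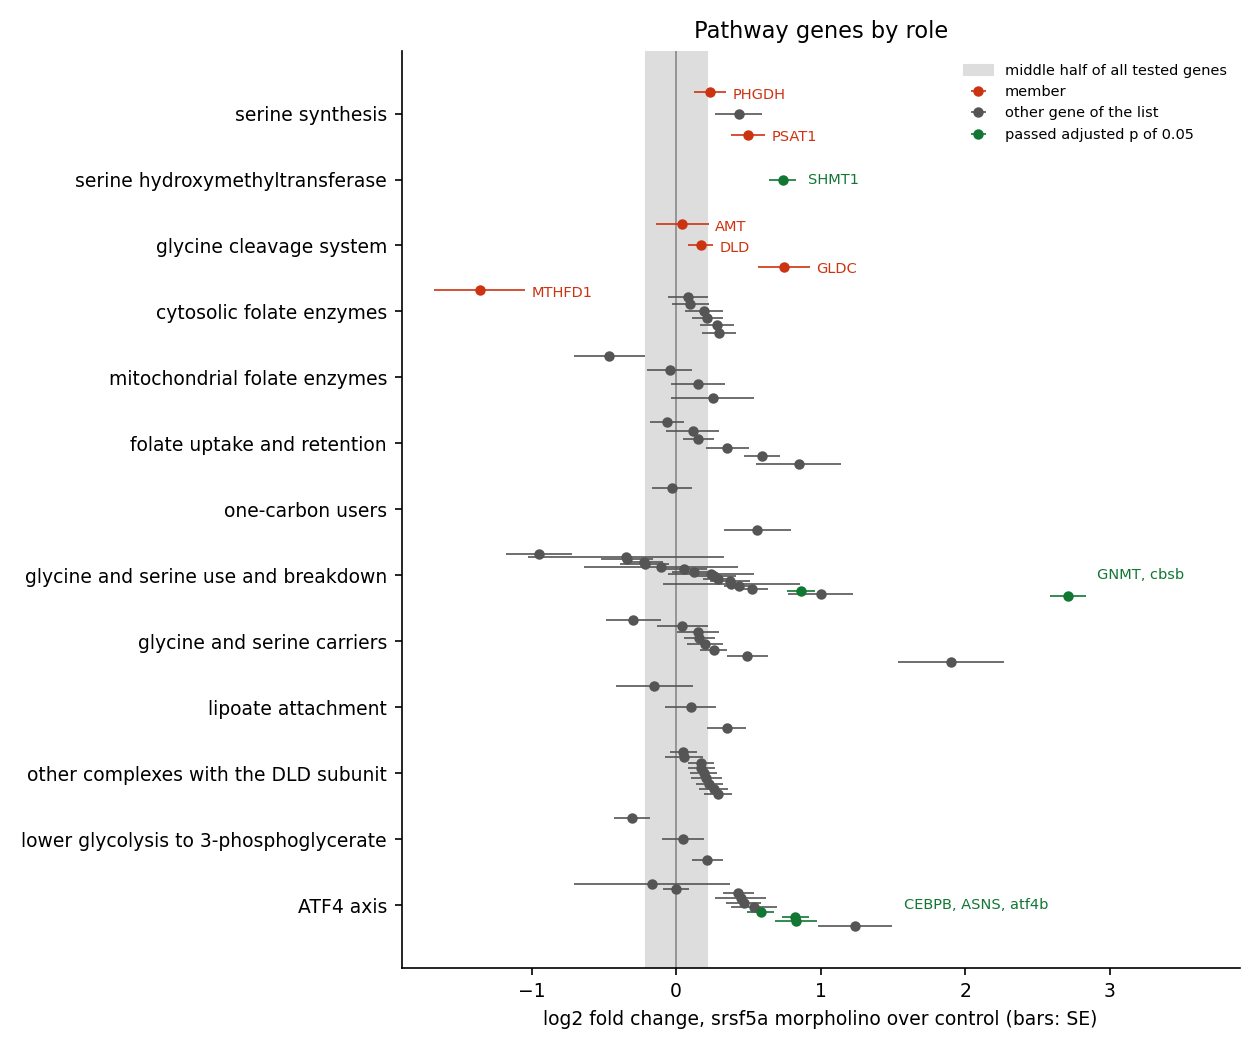
Log2 fold change (srsf5a morpholino over control, bars are SE) of every tested gene of the pathway, by role, with members in red, genes that passed an adjusted p of 0.05 in green and the interquartile range of all tested genes shaded. Most points lie right of 0, GNMT lies farthest right at 2.71, and MTHFD1 (ENSDARG00000018266) lies farthest left at -1.36.

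Apart from the member, none of 6 cytosolic folate genes passed edgeR's test or DESeq2. By unadjusted p under 0.05, 2 were higher (10.5% of all tested genes) and 0 lower (10.1%). All 6 had log2 fold changes above 0, with a median of 0.20. Among them were the paralog of MTHFD1, the thymidylate synthase gene TYMS (0.30 ± 0.12, adjusted p = 0.222 in edgeR), the dihydrofolate reductase gene dhfr (0.28 ± 0.12, adjusted p = 0.229 in edgeR), the formyltetrahydrofolate dehydrogenase gene ALDH1L1 (0.22 ± 0.11) and FTCD, which passes on carbons from histidine breakdown (0.08 ± 0.14). FTCD changed sign when single libraries were left out. TYMS had 29.1 and 30.8 CPM in control libraries against 33.7 and 40.0 CPM in treated ones, which did not overlap.

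Mitochondrial folate genes went both ways, and none of 4 passed edgeR's test, DESeq2 or an unadjusted p under 0.05. MTHFD1L, which releases formate from mitochondria, had 203 and 129 CPM in control libraries against 251 and 144 CPM in treated ones. In both groups replicate 1 was far higher than replicate 2, and the log2 fold change was 0.25 ± 0.29 (adjusted p = 0.672 in edgeR). ALDH1L2 stood at -0.04 ± 0.15, mtfmt, which formylates the initiator tRNA of mitochondria, at 0.15 ± 0.19, and mthfd2l, a dehydrogenase of folate-bound carbon, at -0.46 ± 0.25. mthfd2 was not analysed here.

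Of 6 genes for folate uptake and retention none passed edgeR. By unadjusted p under 0.05, 3 were higher (10.5% of all tested genes) and 0 lower (10.1%). DESeq2 called 1 higher (FPGS, named with its values known), against 3.24% of all genes it adjusted. The gene highest in CPM, that of the reduced folate carrier SLC19A1, stood at 0.15 ± 0.11. Of the users of folate-bound carbon 2 were tested, and gart and mtr were not analysed here. ATIC, which adds a formyl group in purine synthesis, had 218 and 131 CPM in control libraries against 288 and 225 CPM in treated ones. Its groups did not overlap, and replicate 1 was higher in both, with a log2 fold change of 0.56 ± 0.23 (adjusted p = 0.235 in edgeR). Without treated replicate 2 ATIC stood at 0.73, and without control replicate 2 it stood at 0.23, each with 1 library left in that group.

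Among 18 genes that use or break down glycine and serine, 2 were higher (1.22% of all tested genes) and 0 lower (0.768%). By unadjusted p under 0.05, 7 were higher and 1 lower (10.5% and 10.1%), and DESeq2 called 4 higher (3.24%) and 0 lower (3.16%). Both genes that passed edgeR also belong to the methionine and transsulfuration routes. GNMT, which methylates glycine to sarcosine, rose from 6.28 and 5.67 CPM to 38.4 and 39.2 CPM, a log2 fold change of 2.71 ± 0.12 (adjusted p = 0.0017 in edgeR). The gap between groups was many times the spread within either. cbsb, a cystathionine beta-synthase gene whose enzyme joins serine to homocysteine, rose from 62.5 and 64.3 CPM to 121 and 110 CPM, or by 0.86 ± 0.10 (adjusted p = 0.0189 in edgeR). The call of GNMT held in all 9 alternatives, and that of cbsb ended without control replicate 2 (0.88, adjusted p = 0.0863 in edgeR). GATM takes glycine into creatine synthesis and was the highest in CPM of the group. It had 744 and 672 CPM in control libraries against 451 and 669 CPM in treated ones. One treated library was far below the rest and the other nearly level with a control (-0.34 ± 0.18, adjusted p = 0.345 in edgeR). The log2 fold change of GATM was -0.65 without treated replicate 2 and -0.08 without treated replicate 1, each with 1 treated library.

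Among glycine and serine carriers none of 8 passed edgeR. By unadjusted p under 0.05, 3 were higher (10.5% of all tested genes) and 0 lower (10.1%). DESeq2 called 1 higher (SLC1A4, named with its values known), against 3.24% of all genes it adjusted. The highest in CPM, the glycine transporter gene SLC6A9, went from 193 and 180 CPM to 218 and 227 CPM (0.26 ± 0.09, adjusted p = 0.183 in edgeR). Genes for lipoate attachment, on which the H protein depends, gave 0 calls of 3 by edgeR and DESeq2. Of these 3, 1 was higher by unadjusted p under 0.05 (10.5% of all tested genes). The lipoate synthase gene LIAS stood at 0.35 ± 0.13.

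Other complexes that contain the DLD protein were read through their remaining subunits. Of 9 tested subunit genes none passed edgeR or DESeq2. By unadjusted p under 0.05, 3 were higher (10.5% of all tested genes) and 0 lower (10.1%). All 9 had log2 fold changes above 0, from 0.05 to 0.29, with a median of 0.19 beside 0.17 for DLD, and 7 of them lay above both controls in both treated libraries (26.1% of all tested genes did). Highest in CPM was ogdha, a 2-oxoglutarate dehydrogenase gene, at 297 and 278 CPM in control libraries against 328 and 322 CPM in treated ones. The 3 tested genes of lower glycolysis were GAPDH, pgam1a and pgam1b, and none passed by either tool. The pgam1 genes are for phosphoglycerate mutase, which uses up 3-phosphoglycerate and does not supply it. By unadjusted p under 0.05, 1 was lower (10.1% of all tested genes) and 0 higher (10.5%). The lower one was pgam1b (-0.31 ± 0.12, named with its values known), and GAPDH stood at 0.05 ± 0.14.

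Among 10 genes of the ATF4 group 3 were higher (1.22% of all tested genes) and 0 lower, and 8 were higher by unadjusted p under 0.05 (10.5%). DESeq2 called 5 higher (3.24% of all genes it adjusted) and 0 lower, and the median log2 fold change was 0.50 beside 0.0003. This group was known from earlier results of these data, so its counts are not independent evidence. TRIB3 (0.00 ± 0.09) and slc7a11 (-0.17 ± 0.54), named with their values known, stood lowest. The level of slc7a11 was only 0.42 to 0.94 CPM, so its direction is not settled. The transcription factor gene atf4b rose from 307 and 298 CPM to 466 and 440 CPM, the asparagine synthetase gene ASNS from 61.7 and 60.5 CPM to 113 and 104 CPM, and CEBPB, a bZIP transcription factor gene, from 25.6 and 20.8 CPM to 44.8 and 37.2 CPM. Adjusted p in edgeR was 0.0356, 0.0189 and 0.0425 in that order. All of these calls ended without control replicate 2, at 0.56, 0.81 and 0.68, and that of atf4b also without control replicate 1 (0.60). Whether any member depends on these factors was not tested, and atf4a was not analysed here.

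Summed levels of marker genes of other cell types in the embryo differed between groups to varying degrees. Summed over 8 radial glia and astroglia markers the level was 759 and 781 CPM in control libraries against 584 and 585 CPM in treated ones. Of 7 tested 1 was lower (0.768% of all tested genes), FABP7 (ENSDARG00000007697, -0.62 ± 0.09, adjusted p = 0.0316 in edgeR). The lower sum rested largely on this gene, which had 432 and 453 CPM in control libraries against 295 and 279 CPM in treated ones. GFAP stood at -0.09 ± 0.10, and 2 of the 7 lay above 0, S100B (0.83 ± 0.29) and the other FABP7 gene (0.09 ± 0.33). Over 12 liver markers the sum was 4466 and 4587 CPM against 4256 and 4089 CPM. The largest part was apoa2, with 2282 and 2217 CPM against 2256 and 2232 CPM. In contrast, fabp10a (5 to 28 reads per library) and TTR (1 to 3 reads) were hardly detected. The sum over these markers is therefore not read as a measure of liver. Of 11 tested 1 was lower (0.768% of all tested genes), tfa. The lower liver sum rested on tfa: without it the sums were 3478 and 3311 CPM against 3765 and 3478 CPM, and 7 of the 11 had log2 fold changes above 0. Over 5 markers of the yolk syncytial layer the sum was 7502 and 8370 CPM against 8849 and 10111 CPM. Nearly all of it was apobb.1, with 7010 and 7920 CPM against 8288 and 9572 CPM, which did not pass (0.26 ± 0.13, adjusted p = 0.325 in edgeR). The 1 of 5 that was higher (1.22% of all tested genes), MTTP, had 19.3 and 17.3 CPM against 27.8 and 30.7 CPM. SLC40A1 lay below 0 (-0.10 ± 0.11). Over 6 leukocyte markers the sum was 79.7 and 69.3 CPM against 126 and 107 CPM. None of 5 tested passed edgeR, while 2 were higher by unadjusted p under 0.05 (10.5% of all tested genes). DESeq2 called the same 2, lyz and mmp13a, as higher (3.24% of all genes it adjusted). Without mmp13a the leukocyte sums were 75.8 and 65.8 CPM against 86.4 and 96.9 CPM. The gap that was left rested on lyz, with 50.4 and 44.2 CPM against 64.8 and 75.5 CPM. Of the 5 tested, 3 lay above 0, while CORO1A (-0.23) and LCP1 (-0.26) lay below 0. Over 13 markers of dividing cells the sums overlapped, at 2563 and 2416 CPM against 2152 and 2573 CPM, with none of 12 passing by either tool. By unadjusted p under 0.05, 0 were higher (10.5% of all tested genes) and 2 lower (10.1%), mki67 (-0.29 ± 0.12) and TOP2A (-0.33 ± 0.13). These markers went both ways, with 5 of the 12 above 0 and 7 below. No marker with a row in the files was at 0 in any library. The part of these tissues in the members' values was not tested.

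**Figure D4:**
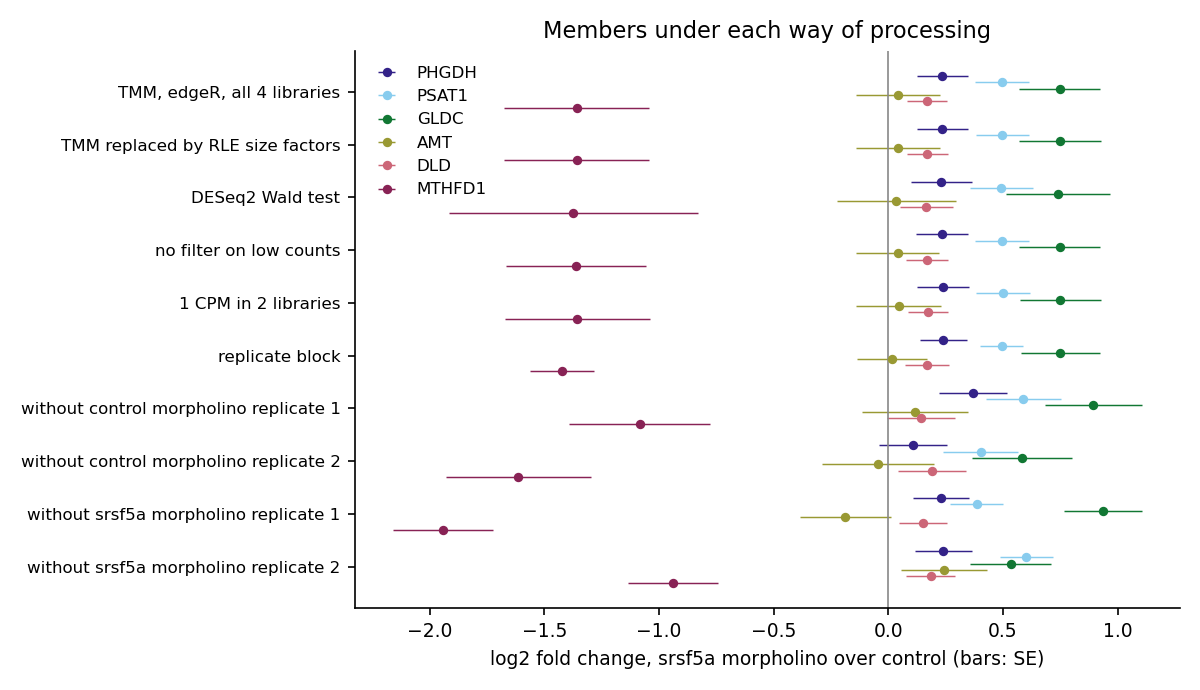
Log2 fold change of each member (srsf5a morpholino over control, bars are SE) with all 4 libraries and under each of 9 alternatives. Changing the scaling, the filter or the tool moves the points little, whereas leaving out a library moves MTHFD1 between -1.94 and -0.94 and takes AMT across 0.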

How the data were processed

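RNA was sequenced from 2 control-morpholino and 2 srsf5a-morpholino libraries, grouped by their titles. The submitters' processing notes name build Zv9 and the tools TopHat, HTSeq, Picard and DESeq2. Versions, annotation release and strand setting are not given in any source used, so reads of overlapping or antisense genes cannot be told apart. The deposited files hold read counts per gene. Their summary totals (42.9% to 47.0% of listed counts) stayed out of library sizes. The authors' deposited table gives a signal column (mean normalized count), log2 fold changes, p-values and a score column (a Wald statistic). Its signal and score columns were not used.

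The test was edgeR 4.0.16 under R 4.3.3 (TMM; filterByExpr, minimum count 10, minimum total 15; quasi-likelihood test; group as the only term). The 95% intervals use the same fit. DESeq2 1.42.0 was an alternative. A count of 0 allows up to 3 counts, or 0.0828 to 0.198 CPM. In simulated counts most changes of 0.5 on the log2 scale were missed, so a member that did not pass may still differ. False calls were few with trended dispersions and exceeded the nominal rate with per-gene ones, so single calls need caution.

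Replicates differed beyond sampling noise (a chi-square of 8.72 and 13.5 per degree of freedom over genes with at least 10 counts). The labels call the replicates biological, but give 80 embryos per condition, so p-values measure only the spread between these libraries.

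The members and lists were chosen with earlier results of these data known. Symbols came from a supplied table. List symbols were matched without regard to case, else without the paralog letter, and 8 had no match (gcsh, folr1, sds, pgk1, hpx, cx43, mpx and mpeg1.1). A further 9 pathway identifiers were matched but are absent from the genes counted, so they were not analysed and their levels are unknown. The same held for 5 identifiers of the radial glia and astroglia markers, 1 of the yolk syncytial layer and 2 of dividing cells. Named genes are the members and every gene of the serine synthesis, hydroxymethyltransferase, glycine cleavage and folate enzyme lists. Also named are the called genes and those highest in CPM of other pathway lists, and the 5 nearest profiles (log2 of CPM plus 0.5). Called markers are named besides. Some genes that the rule takes are left out of the text. No sequences are shown, as none were used here.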

Additional observations from a re-analysis of the deposited data

How the results depend on the processing

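Members' log2 fold changes kept their direction in 52 of 54 fits (6 genes, 9 alternatives). AMT turned in the other 2, and its values without single libraries ran from -0.19 to 0.24. PSAT1 and GLDC crossed the threshold in DESeq2 (0.49 and 0.74), and with the replicate block so did PSAT1 (0.49), GLDC (0.75) and MTHFD1 (-1.42). With single libraries left out, PSAT1 ran from 0.39 to 0.60, GLDC from 0.53 to 0.94 and MTHFD1 (ENSDARG00000018266) from -1.94 to -0.94, and each crossed the threshold at least once. PHGDH and DLD crossed it in no alternative.

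Over all genes 395 were called (242 higher, 153 lower), 962 (487 and 475) by DESeq2 and 33 to 1410 (31 to 702 higher, 2 to 708 lower) with single libraries left out. With the replicate block the count was 1582 (865 and 717). Libraries with one number deviated together (correlation 0.393 over genes), but with 2 pairs and no label tying them the number is not taken as a pairing. In the pathway list the 6 calls, all higher, became 12 by DESeq2 (12 higher), 16 with the block (15 higher, 1 lower) and 1 to 18 with single libraries left out (1 to 16 higher, 0 to 2 lower).

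Named genes that turned sign with single libraries left out, none of them called, were FTCD (-0.0595 to 0.24), ALDH1L2 (-0.23 to 0.15), MTHFD1L (-0.20 to 0.61), mtfmt (-0.0313 to 0.31) and GAPDH (-0.13 to 0.25). RLE scaling and both filters changed no member's call. The cause of these shifts was not tested. With a library left out, its group has 1 sample, which is assumed to vary like the other group.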

Other observations

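Some pathway genes outside the naming rule were picked out with their values known, and none passed edgeR's test. The threonine breakdown genes tdh and GCAT, whose enzymes act in turn to give glycine, had 112 and 105 CPM in control libraries against 155 and 138 CPM in treated (srsf5a-morpholino) ones (tdh, 0.43 ± 0.10, adjusted p = 0.0792 in edgeR) and 26.6 and 24.5 CPM against 37.9 and 35.6 CPM (GCAT, 0.53 ± 0.11, adjusted p = 0.0584 in edgeR). DESeq2 called both (adjusted p = 0.0166 and 0.0247). FPGS, which adds glutamates that hold folate in cells, had 17.4 and 20.6 CPM in control libraries against 28.0 and 29.6 CPM in treated ones (0.59 ± 0.12, adjusted p = 0.0629 in edgeR and 0.0235 in DESeq2). One SLC25A38 gene (ENSDARG00000059805), of a mitochondrial glycine carrier, had 0.668 and 1.36 CPM in control libraries against 4.81 and 3.36 CPM in treated ones (1.90 ± 0.37, adjusted p = 0.0519 in edgeR). Its values rest on few reads, 10 and 50 in control libraries against 111 and 79 in treated ones. DESeq2 run here gave it no adjusted p, while the authors' deposited table, also from DESeq2, gives 0.00359. The other SLC25A38 gene (ENSDARG00000074533) stood at 0.20 ± 0.13 (adjusted p = 0.424 in edgeR). In the other direction, one AGXT gene (ENSDARG00000052099), of an aminotransferase that makes glycine from glyoxylate, had 5.88 and 4.53 CPM in control libraries against 2.65 and 2.68 CPM in treated ones (-0.95 ± 0.23, adjusted p = 0.0809 in edgeR and 0.099 in DESeq2).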
